A study of Mus musculus with 23 samples.

Results

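The genes Ncam2, Plxdc2, Ndrg2, Aspa and Sytl5 were examined in hematopoietic stem cells, abbreviated HSC, and in lymphoid-primed multipotent progenitors, LMPP, with and without phosphoinositide 3-kinase (PI3K) p110 subunits. The 5 genes were chosen by their higher values in HSC than in LMPP. They came from genes that the authors' comparison tables already listed against wild type (WT) at an unadjusted p below 0.05. None of those listings passed the authors' correction for false discoveries (FDR) at 0.05. Each of the 5 genes matched 1 transcript cluster, the array's unit for the signal of a gene, so 5 of 65956 clusters were followed. All 5 were among the 32978 clusters that passed a filter on low values and were tested. The filter asked for a mean of at least log2 4.95 over all 23 arrays. Sytl5 averaged 6.49 in HSC and 4.64 in LMPP, so it passed only through HSC, where it was chosen to be high. Its LMPP comparisons are therefore no test of it.

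Marrow of 4 genotypes had been transplanted, and HSC and LMPP had been sorted from pooled recipients. Marrow lacked both p110α and p110δ (p110αδ DKO, here DKO), p110δ alone (p110δ-/-, deltaKO) or p110α alone (p110α-/-, alphaKO), or was WT. HSC were sorted as lineage-negative, c-Kit-positive cells without Flk2 and CD48 and with CD150, and LMPP as lineage-negative, c-Kit-positive cells with Flk2 and CD48 and without CD150. Total RNA was measured on 23 Affymetrix Mouse Transcriptome Assay 1.0 arrays, 12 of HSC and 11 of LMPP, with 3 arrays in every group except LMPP WT, which had 2. Per the sex labels, 1 sample in every group was female and the others were male. The recipients' own cells that remained after transplantation, the ages and the Cre or deletion scheme are not described in the sources used here. Whether the arrays within a group represent separate pools is not stated, so a p-value here reflects only the spread among these arrays, possibly technical. In these bulk samples, fewer cells of a type and less RNA per cell cannot be told apart.

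Class I PI3K makes the lipid signal that activates AKT, and AKT keeps FOXO transcription factors out of the nucleus. HSC depend on FOXO factors for quiescence and resistance to stress, and LMPP are early progenitors with lymphoid and myeloid potential. Ncam2 is an adhesion molecule of the immunoglobulin superfamily, best known from olfactory axons. Plxdc2 is a transmembrane protein with a plexin-like domain, related to a tumor endothelial marker. Ndrg2 belongs to the N-myc downstream-regulated family and is best known from astrocytes. Aspa hydrolyses N-acetylaspartate to acetate and aspartate, and its loss causes a leukodystrophy. Sytl5 is a synaptotagmin-like protein of the family that binds Rab27 on secretory vesicles.

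Promoter sequences are shown because 4 of these genes stood higher, and Sytl5 lower, in DKO HSC than in WT HSC, and because FOXO factors lie downstream of PI3K. They come from RefSeq on the build GRCm38.p6, and 4 of the 5 genes, all but Plxdc2, had an entry. Each run is the 250 bases before the annotated start, 5′ to 3′ on the gene's strand. Capitals mark a FOXO core motif, GTAAACA or ATAAACA, searched on both strands (TGTTTAC and TGTTTAT on the other strand). The Ncam2 run is chr16:81200447-81200696 on the plus strand. The Ndrg2 run is chr14:51914005-51914254 on the minus strand, the first of 3 annotated starts. The Aspa run is chr11:73324638-73324887 on the minus strand, and the Sytl5 run is chrX:9885371-9885620 on the plus strand.
Ncam2: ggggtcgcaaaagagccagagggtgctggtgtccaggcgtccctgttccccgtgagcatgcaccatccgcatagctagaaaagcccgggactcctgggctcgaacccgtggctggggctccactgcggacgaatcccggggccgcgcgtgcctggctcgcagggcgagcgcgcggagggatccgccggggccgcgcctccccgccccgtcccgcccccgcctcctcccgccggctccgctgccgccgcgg
Ndrg2: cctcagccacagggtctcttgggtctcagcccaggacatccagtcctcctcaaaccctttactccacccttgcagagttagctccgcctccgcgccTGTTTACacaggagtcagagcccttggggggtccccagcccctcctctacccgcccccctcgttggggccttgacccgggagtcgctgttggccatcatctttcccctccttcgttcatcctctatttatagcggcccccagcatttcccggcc
Aspa: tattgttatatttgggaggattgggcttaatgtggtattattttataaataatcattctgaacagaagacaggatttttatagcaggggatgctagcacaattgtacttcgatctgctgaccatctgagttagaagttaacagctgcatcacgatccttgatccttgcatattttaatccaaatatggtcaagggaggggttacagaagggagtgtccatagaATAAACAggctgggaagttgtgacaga
Sytl5: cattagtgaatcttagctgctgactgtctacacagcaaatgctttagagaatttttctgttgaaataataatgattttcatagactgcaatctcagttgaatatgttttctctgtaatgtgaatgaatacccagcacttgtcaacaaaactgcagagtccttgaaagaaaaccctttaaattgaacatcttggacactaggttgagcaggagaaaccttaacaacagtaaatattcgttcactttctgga

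The Ndrg2 promoter shown held TGTTTAC at 154 to 148 bases before the start, and that of the third start, chr14:51913330-51913579, held TGTTTAT at 131 to 125 bases before it. The promoter of its second start held neither motif. The Aspa promoter held ATAAACA 27 to 21 bases before the start. These letters were not in the Ncam2 and Sytl5 windows. Of 32851 promoter windows of this length, 3.17% held GTAAACA and 4.16% held ATAAACA on either strand, and 7.10% held at least 1 of them. GC content was 75.2% in the Ncam2 window, 62.0% in the Ndrg2 window shown, 38.8% in the Aspa window and 35.2% in the Sytl5 window. A match of letters is a description and no binding was measured.

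The cell type labels were checked with marker genes that the comparison tables named. Vwf and Tek, known HSC genes, averaged log2 9.38 and 10.05 in HSC and 5.54 and 6.43 in LMPP. Selp, the other HSC marker named here, did not separate the cell types, with 12.37 in HSC and 11.90 in LMPP and with 12.58 in LMPP DKO against 12.26 in HSC WT. Ctsg and Ms4a3, genes of early myeloid cells, averaged 6.86 and 6.82 in HSC and 13.03 and 13.62 in LMPP. Of the marker lists, 3 of 10 HSC genes, 3 of 10 early myeloid genes and 7 of 8 neutrophil genes were named here, and the genes of the sort markers and of p110α and p110δ were not analysed. Array medians were log2 4.83 to 5.04 on 22 arrays, and LMPP WT replicate 2 stood apart at 5.29. That array had the lowest mean correlation with its cell type, 0.961, and HSC WT replicate 3 had the lowest among HSC arrays, 0.984. The highest correlation between any 2 arrays was 0.993.

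All 5 genes were higher on every HSC array than on every LMPP array, which is the property they were chosen by and is given without a test. Over all clusters tested, 2.05% separated the arrays in this way. The separation was also seen for 5 of 5 genes without LMPP WT replicate 2 and HSC WT replicate 3. The mean difference, HSC minus LMPP on the log2 scale, was 4.65 for Plxdc2, 2.53 for Ncam2, 2.19 for Aspa, 1.98 for Ndrg2 and 1.86 for Sytl5. The lowest HSC array exceeded the highest LMPP array by 2.59 for Plxdc2 and by 0.03 for Ndrg2, the least of the 5.

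**Figure D1:**
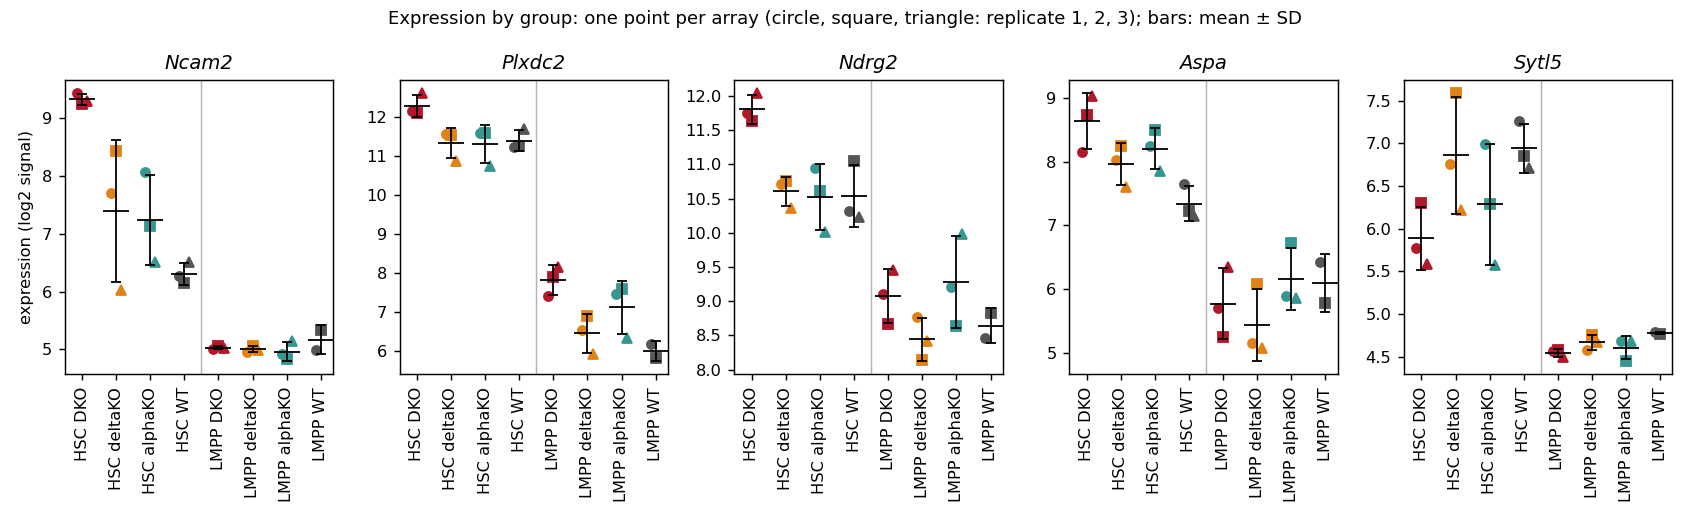
Log2 expression of each gene (y axis) on each array, by group (x axis, HSC left of the line, LMPP right of it). Points are arrays, bars the mean ± SD (n = 3, and n = 2 for LMPP WT). Ncam2 in the 3 HSC DKO arrays sits between 9.24 and 9.43, above all other arrays.

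The size of the HSC excess varied with genotype. For Ncam2, HSC exceeded LMPP by 4.297 in DKO, 2.38 in deltaKO, 2.27 in alphaKO and 1.134 in WT. For Aspa the same difference was 2.87 in DKO, 2.52 in deltaKO, 2.05 in alphaKO and 1.24 in WT. Both genes therefore had their smallest HSC excess in WT. Plxdc2 ran otherwise, with 4.46 in DKO, 4.87 in deltaKO, 4.18 in alphaKO and 5.39 in WT, where it was 42.0-fold higher in HSC. Ndrg2 differed by 2.73 in DKO, 2.16 in deltaKO, 1.24 in alphaKO and 1.89 in WT. Sytl5 had its smallest excess in DKO, at 1.34, against 2.19 in deltaKO, 1.68 in alphaKO and 2.16 in WT. The authors listed Ncam2, Ndrg2 and Aspa as higher, and Sytl5 as lower, in DKO HSC than in WT HSC. Plxdc2 was listed as higher in DKO LMPP than in WT LMPP. The order of the genotypes therefore follows in part from the selection.

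**Figure D2:**
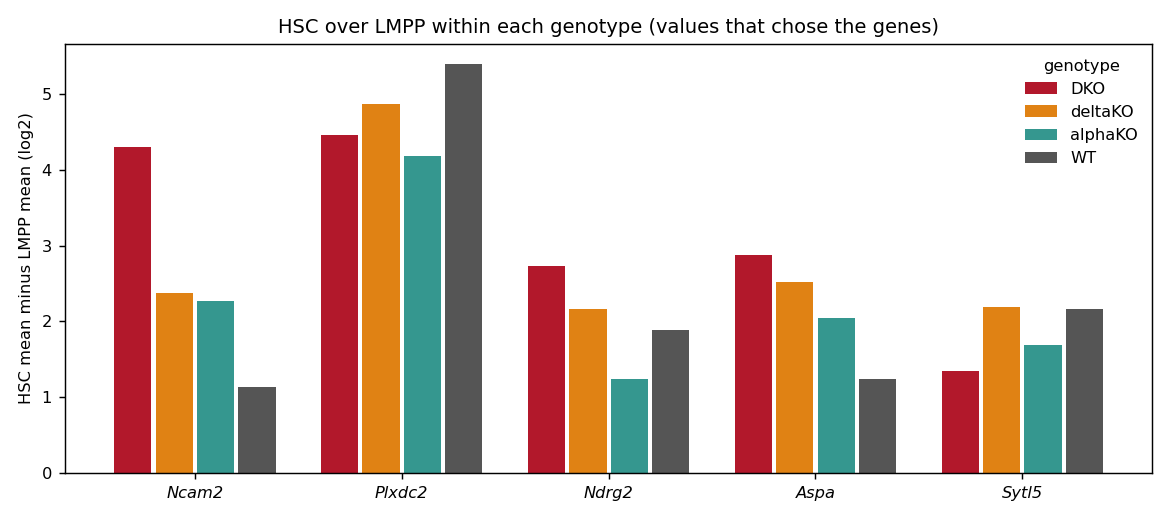
HSC mean minus LMPP mean (y axis, log2) of each gene (x axis) within each genotype, with bars in the order DKO, deltaKO, alphaKO and WT. These values chose the genes and are not tested, and the contrasts that listed the genes enter them. Ncam2 ranges between 4.297 in DKO and 1.134 in WT, and Plxdc2 is largest in WT, at 5.39.

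Ncam2, the adhesion molecule, showed the widest difference between genotypes in HSC of the 5 genes. Its values on the 3 DKO arrays were log2 9.43, 9.24 and 9.30. The deltaKO arrays had 7.70, 8.42 and 6.03, and the alphaKO arrays had 8.06, 7.14 and 6.51. The WT arrays had 6.27, 6.14 and 6.50. All DKO arrays were above the other 9 HSC arrays and lay within 0.2 of each other, whereas the single knockouts spread widely and deltaKO replicate 3 was below every WT array. DKO averaged 9.32 ± 0.09 and WT 6.30 ± 0.18 (SD, n = 3 each), a difference of 3.02 or 8.11-fold. The authors' deposited table lists Ncam2 for this contrast at a fold of 8.1, and since that listing made the gene a candidate, no test is given for it.

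In LMPP Ncam2 was near the array medians in all groups. It measured 5.01, 5.05 and 5.02 in DKO, 4.96, 5.07 and 4.99 in deltaKO, 4.92, 4.83 and 5.14 in alphaKO, and 4.999 and 5.34 in WT. The groups overlapped, and the means fell in the order WT, DKO, deltaKO and alphaKO with no neighbouring pair free of overlap. The related adhesion gene Ncam1 had the opposite cell type pattern in some genotypes. Its LMPP means were 5.40 in DKO, 4.96 in deltaKO, 6.45 in alphaKO and 6.62 in WT, and its HSC means were 4.77, 4.76, 4.81 and 4.90 in the same order, so the excess in LMPP was small in deltaKO.

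Plxdc2, the plexin-domain transmembrane protein, had the largest HSC excess of the 5 genes and was higher still in DKO HSC. It measured 12.14, 12.09 and 12.60 in DKO HSC. It measured 11.55, 11.54 and 10.87 in deltaKO HSC and 11.58, 11.59 and 10.74 in alphaKO HSC. WT HSC had 11.21, 11.25 and 11.69. The DKO arrays were again the highest 3 of 12, and the other 3 genotypes overlapped. DKO exceeded WT by 0.89 (SE 0.28), or 1.86-fold, with limma unadjusted p = 0.0084 and adjusted p = 0.445, which did not pass. This is the only one of the 5 genes whose HSC DKO contrast with WT was not used for its selection.

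In LMPP Plxdc2 measured 7.41, 7.88 and 8.15 in DKO and 6.53, 6.90 and 5.92 in deltaKO. It measured 7.45, 7.58 and 6.33 in alphaKO, and 6.17 and 5.82 in WT. Both WT arrays were below every DKO and alphaKO array. DKO exceeded WT by 1.82, or 3.53-fold, the contrast for which the authors' deposited table lists it with a fold of 3.6. The alphaKO mean exceeded WT by 1.124 (SE 0.41, limma adjusted p = 0.553), which did not pass. That difference uses the WT arrays of the listing contrast, so it is not independent of the selection.

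Ndrg2, of the N-myc downstream-regulated family, differed between DKO HSC and the rest. Its DKO values were 11.74, 11.63 and 12.04. The deltaKO arrays had 10.71, 10.75 and 10.36, the alphaKO arrays 10.95, 10.61 and 10.01, and the WT arrays 10.32, 11.05 and 10.22. Only the DKO arrays stood apart, and the 3 other means lay within 0.1 of each other. DKO exceeded WT by 1.27, or 2.41-fold, on arithmetic means. The authors' deposited table lists it at 2.81, from bi-weight averages, which give less weight to arrays far from the median. In LMPP the values were 9.11, 8.67 and 9.45 in DKO, 8.77, 8.14 and 8.42 in deltaKO, 9.21, 8.64 and 9.98 in alphaKO, and 8.47 and 8.83 in WT. These overlapped, and the highest of them, in alphaKO, came within 0.03 of the lowest HSC array.

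Aspa, the N-acetylaspartate hydrolase, showed graded means in HSC. Its values were 8.16, 8.73 and 9.02 in DKO and 8.02, 8.25 and 7.61 in deltaKO. It measured 8.24, 8.501 and 7.86 in alphaKO and 7.65, 7.22 and 7.14 in WT. All DKO and alphaKO arrays were above every WT array, and deltaKO replicate 3 fell among WT. The means ran in the order DKO, alphaKO, deltaKO and WT, at 8.64, 8.20, 7.96 and 7.34, and each neighbouring pair overlapped. The authors' deposited table lists Aspa for HSC DKO at a fold of 2.81 and for HSC alphaKO at 2.04. The deltaKO difference from WT, which was not listed, was 0.62 (SE 0.26, limma unadjusted p = 0.038, adjusted p = 0.589). It uses the WT arrays of the contrasts that listed Aspa, so it is not independent of the selection. In LMPP the values were 5.70, 5.24 and 6.35 in DKO, 5.15, 6.08 and 5.07 in deltaKO, 5.89, 6.72 and 5.86 in alphaKO, and 6.42 and 5.78 in WT. The LMPP groups overlapped.

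Sytl5, the Rab27-binding family member, ran the other way in HSC. It measured 5.78, 6.30 and 5.59 in DKO. The deltaKO arrays had 6.76, 7.59 and 6.23, the alphaKO arrays 6.997, 6.29 and 5.58, and the WT arrays 7.26, 6.85 and 6.71. Every DKO array was below every WT array, and the single knockouts overlapped both. DKO was lower than WT by 2.08-fold, a log2 difference of -1.06, and the authors' deposited table lists a signed fold of -2.08. In LMPP Sytl5 measured between 4.45 and 4.79 on all 11 arrays, below the lowest array median. Both WT arrays there were above the 9 others, although all 11 lay below the array medians.

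In the authors' tables the smallest listed fold was 2.01 and every listed unadjusted p was below 0.05. Aspa in HSC alphaKO, at 2.04, was close to that smallest fold. The authors' folds are from bi-weight averages. On the arithmetic means here Aspa in HSC alphaKO was 1.82-fold and Plxdc2 in HSC DKO, which the table for HSC DKO does not list, was 1.86-fold.

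For the tests, each cell type was fitted with limma across all 32978 clusters, and a call is a Benjamini-Hochberg adjusted p below 0.05. None of the 5 genes was called in any of 16 comparisons, leaving out the contrasts that listed them. The DKO arrays enter both the listing contrast and the comparisons with the single knockouts, so those comparisons are not independent of the selection. The WT arrays of a listing contrast likewise enter the other comparisons with WT in that cell type. Few clusters were called in HSC at all. In HSC, 0.0091% of clusters were called for DKO minus WT, 0.0091% for deltaKO minus WT and 0% for alphaKO minus WT. The share was 0.0121% for DKO minus alphaKO, 0% for DKO minus deltaKO, 0.00303% for deltaKO minus alphaKO and 0% for the interaction of both losses.

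In HSC the DKO arrays exceeded the alphaKO arrays by 1.28 for Ndrg2 (SE 0.27, limma adjusted p = 0.294), by 2.09 for Ncam2 (SE 0.53, adjusted p = 0.493) and by 0.98 for Plxdc2 (SE 0.28, adjusted p = 0.59). An unadjusted p below 0.05 was reached by 3 of 5 genes against alphaKO, beside 1807 of 32978 clusters, and by 5 of 5 against deltaKO, where Sytl5 was lower by 0.97. Against deltaKO the differences were 1.94 for Ncam2, 1.199 for Ndrg2, 0.96 for Plxdc2 and 0.68 for Aspa. Among all clusters the median difference of DKO from deltaKO was 0.02 and 1011 clusters had an unadjusted p below 0.05. The interaction, DKO minus alphaKO minus deltaKO plus WT, was 1.04 for Plxdc2 (SE 0.39, limma unadjusted p = 0.023, adjusted p = 0.9996), which did not pass. For Ndrg2 it was 1.211, which contains the DKO difference from WT that listed the gene and is given as a description. Both genes had single-knockout means close to WT. Against WT, Ndrg2 differed by 0.07 in deltaKO and by -0.01 in alphaKO, and Plxdc2 by -0.06 in deltaKO and by -0.08 in alphaKO.

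**Figure D3:**
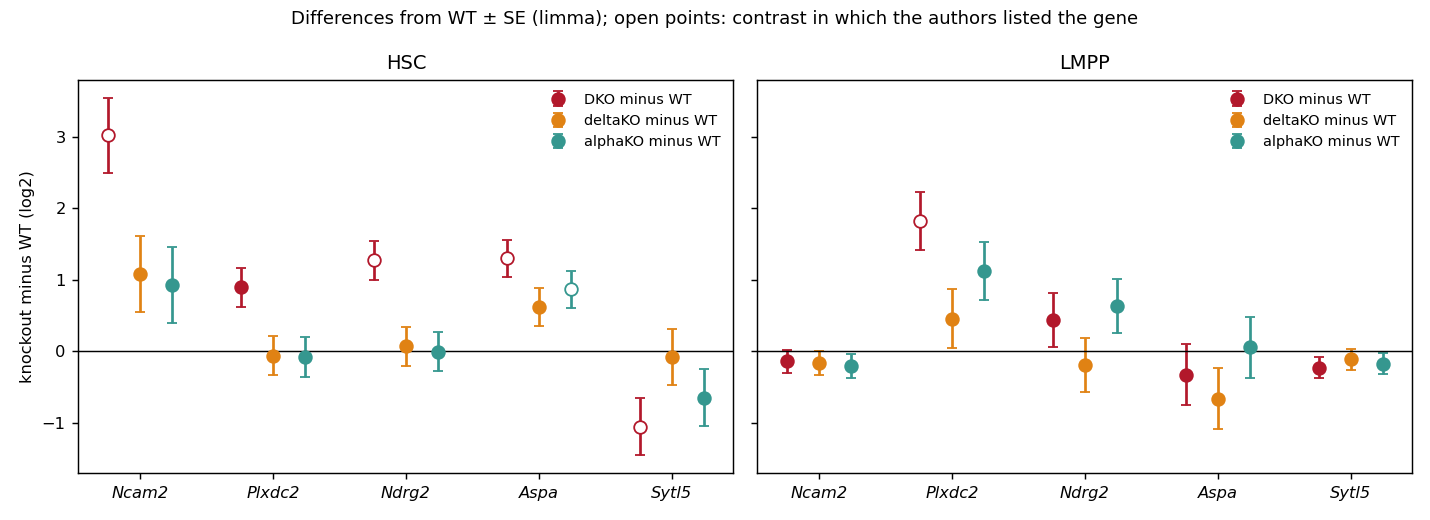
Difference of each knockout from WT (y axis, log2, ± SE from limma) for each gene (x axis) in HSC (left) and LMPP (right). Open points are contrasts in which the authors listed the gene, and no test is given for them. Ncam2 in HSC DKO lies at 3.02 and Sytl5 at -1.06, whereas in LMPP only Plxdc2 in DKO exceeds 1.5, at 1.82.

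All 3 DKO arrays stood above the other 9 HSC arrays for 3 of 5 genes (Ncam2, Plxdc2 and Ndrg2), which also holds without HSC WT replicate 3. Over all clusters, 0.506% had this arrangement, and for Ncam2 and Ndrg2 the selection used it in part. In LMPP the 3 DKO arrays stood above the other 8 arrays for 0 of 5 genes, against 0.631% of clusters. In LMPP, 0% of clusters were called for DKO minus WT, 0.388% for deltaKO minus WT, 0% for alphaKO minus WT, 0.00606% for DKO minus alphaKO, 0% for DKO minus deltaKO, 0.418% for deltaKO minus alphaKO and 0% for the interaction. No gene of the 5 was called there by limma, and the counts at an unadjusted p below 0.05 were 1 of 5 for alphaKO minus WT (Plxdc2), 1 of 5 for DKO minus deltaKO (Plxdc2), 1 of 5 for deltaKO minus alphaKO (Ndrg2) and 0 for deltaKO minus WT, DKO minus alphaKO and the interaction. Over all clusters, 2880, 1221 and 1897 of 32978 reached it in the first 3 of these comparisons, and 4028, 1763 and 1762 in the last 3. For DKO minus WT the count was 0 of the 4 genes other than Plxdc2, whose listing used that contrast, beside 4673 clusters. Sytl5, which passed the filter only through HSC, is among the genes counted. With so few genes, these counts are not read as a result about them. Limma's F test of the 3 knockout effects, HSC against LMPP, called 0.0121% of clusters and none of the 5 genes. Each gene's listing used at least 1 of the contrasts in it, so it is no separate test of them. As a description, the DKO effect in HSC exceeded that in LMPP by 3.16 for Ncam2 and by 1.63 for Aspa. Males differed from females by -0.39 for Aspa (SE 0.16, limma adjusted p = 0.571) and by 0.33 for Ndrg2 (SE 0.16, adjusted p = 0.639), with 0.0758% of clusters called.

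Of the HSC marker genes, Selp alone was higher on all DKO arrays than on the other HSC arrays. The summed level of Vwf, Tek and Selp was log2 13.11 to 13.20 in DKO HSC, 12.42 to 12.91 in deltaKO, 12.24 to 12.94 in alphaKO and 12.57 to 12.77 in WT, so that DKO was the highest. The sum follows Selp most closely. Vwf averaged 9.79 in DKO, 9.85 in deltaKO, 9.08 in alphaKO and 8.80 in WT. Its lowest DKO array, at 9.29, was above its highest WT array, at 9.26. Tek overlapped between DKO (10.01 to 10.73) and WT (9.94 to 10.28). Selp, an adhesion receptor of platelets and endothelium that HSC also carry, measured 12.68 to 12.82 in DKO HSC and at most 12.54 elsewhere in HSC, with limma adjusted p = 0.575 against WT. None of the 3 was called. All 3 were higher on average in DKO than in WT, and 2 of 3 had a limma unadjusted p below 0.05, beside 2784 of 32978 clusters. The authors' tables named these markers on the same arrays, so this is a description. The summed early myeloid genes in HSC were 7.96 to 11.62 in DKO, 8.70 to 12.83 in deltaKO, 7.69 to 8.23 in alphaKO and 8.39 to 10.76 in WT, so that DKO overlapped every other group. The summed neutrophil genes were 9.38 to 14.77 in DKO, 9.24 to 13.18 in deltaKO, 9.53 to 13.11 in alphaKO and 12.13 to 14.29 in WT. In LMPP the neutrophil sum differed more between genotypes, with means of 15.04 in DKO, 12.27 in deltaKO, 19.05 in alphaKO and 19.31 in WT. The part of these in the differences was not tested.

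On HSC alphaKO replicate 3 and HSC deltaKO replicate 3, all 5 genes had the lowest value of their group. Over all clusters tested, 16.4% had both arrays lowest. Those arrays were males, as was replicate 1 of both groups, and had array medians of 4.95 and 4.88, within the range of the other HSC arrays. Ncam2 was 7.70, 8.42 and 6.03 on deltaKO replicates 1, 2 and 3, a spread wider than any other group of this gene. The summed early myeloid genes were 8.99, 12.83 and 8.70 on the same arrays, so replicate 1 was close to replicate 3.

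Across the HSC arrays, Ncam2, Plxdc2, Ndrg2 and Aspa varied together, and part of this is the DKO contrast that listed 3 of these 4. Over all 12 arrays their 6 pairwise Pearson correlations lay between 0.65 and 0.86, with the DKO arrays forming a separate cluster for Ncam2, Plxdc2 and Ndrg2. Over the 9 arrays that are not DKO, 0 of 10 pairs passed after Benjamini-Hochberg adjustment in a two-sided permutation test with 100000 resamples. The strongest of them was Ncam2 with Aspa, at Pearson r = 0.73 (permutation p = 0.03, adjusted 0.282) and Spearman rho = 0.78 (permutation p = 0.016, adjusted 0.163). Without the 2 arrays farthest from the Ncam2 median, r was 0.66. As deviations from each genotype's mean, over 12 arrays, all 10 pairs were positive and 2 passed by Pearson correlation, Ncam2 with Sytl5 (r = 0.81, permutation p = 0.0011, adjusted 0.0113) and Ncam2 with Plxdc2 (r = 0.74, permutation p = 0.004, adjusted 0.0199). Spearman rho of these pairs was 0.53 (permutation p = 0.08) and 0.56 (permutation p = 0.062), and 0 of 10 pairs passed by rank. These are deviations within genotypes, and the widest of them are on alphaKO and deltaKO arrays.

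**Figure D4:**
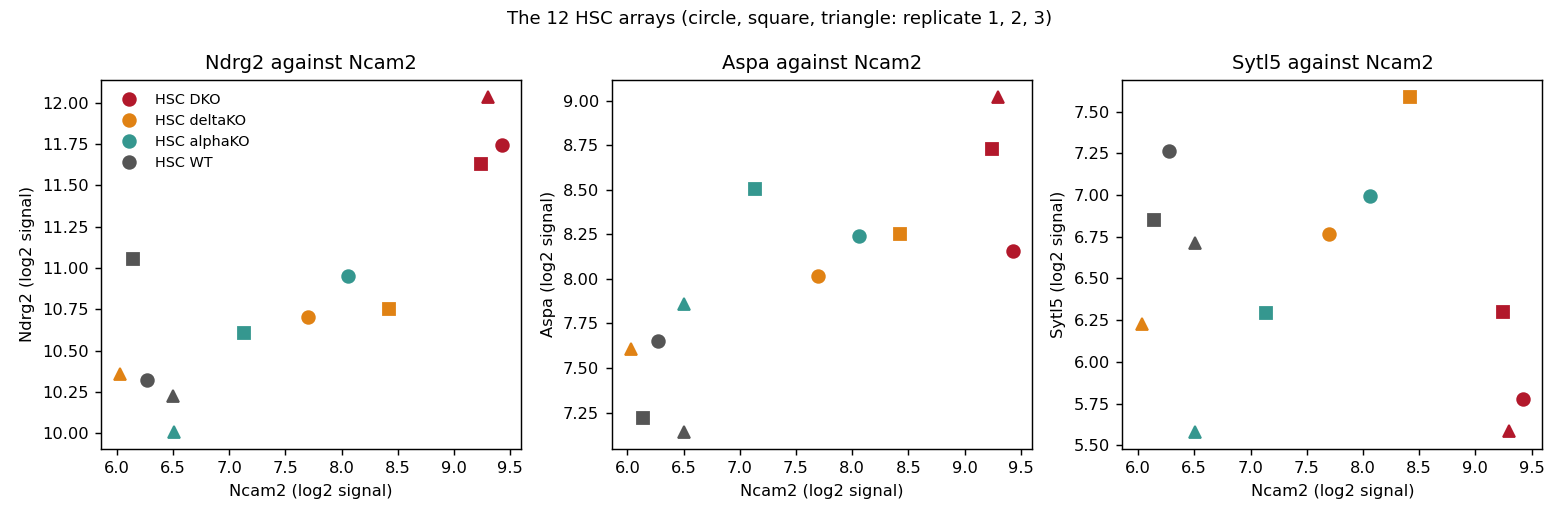
Log2 expression of Ndrg2, Aspa and Sytl5 (y axes) against Ncam2 (x axes) on the 12 HSC arrays, colored by genotype, with shapes for replicates. The 3 DKO arrays lie at Ncam2 values of 9.24 to 9.43, apart from the other 9 arrays at 6.03 to 8.42, and they are low for Sytl5, at 5.59 to 6.30.

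By Pearson correlation over the 12 HSC arrays, among 297 genes that the authors' tables name, Gimap6 was most like Ncam2 (r = 0.95), Ndrg2 (0.87) and Aspa (0.76). These genes share the selection on differences from WT and the same arrays, so the likeness is a description. Gimap6, a GTPase of the immunity-associated family, averaged 11.14 in DKO, 10.27 in deltaKO, 9.98 in alphaKO and 9.73 in WT HSC, and 10.10 in LMPP, so it was not high in HSC only. Pde2a, a cyclic nucleotide phosphodiesterase, was most like Plxdc2 (r = 0.78) and second for Ncam2 (0.88) and Ndrg2 (0.80), and its mean was 8.45 in HSC and 9.52 in LMPP. The third for Ncam2 was Gimap4 (0.77), for Plxdc2 Deptor (0.77), an inhibitor of mTOR, and for Ndrg2 the kinase gene Pim2 (0.75). Aspa was also like Il1f9 (0.76), which had a mean of 4.61 in HSC, and Pou5f2 (0.71). Sytl5 resembled other genes: Syne1, of the nuclear envelope (0.86), Vps13c (0.78) and Gsr, glutathione reductase (0.74).

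Genes around the 5 were read from lists of their families and pathways. Of 28 adhesion genes 6 were named here, a second list of NDRG-family and FOXO-target genes had 9 named members, and there were none from the lists of plexins and semaphorins, Rab27 effectors or N-acetylaspartate metabolism. In HSC DKO against WT no gene of either list was called by limma, with 2 of 6 and 3 of 9 at an unadjusted p below 0.05, beside 2784 of 32978 clusters. The median difference was -0.12 for the adhesion genes and -0.37 for the NDRG and FOXO-target list, against 0.05 for all clusters. In the second list the smallest p-values were those of the transcription factor gene Klf4 (difference -1.85, limma adjusted p = 0.376) and the stress-response gene Gadd45a (difference -0.52, adjusted p = 0.525). Among the adhesion genes they were those of Selp (difference 0.51, adjusted p = 0.575) and of Cd44, the hyaluronan receptor (difference -0.64, adjusted p = 0.588). These list genes were named because the authors' tables listed them on the same arrays.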

How the data were processed

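The authors deposited log2 expression values per transcript cluster, labelled as RMA values from Expression Console, per the labels. The submitters' processing notes name the Affymetrix Expression Console together with the Transcriptome Analysis Console. Their versions and the genome build were not given in the sources used here. Comparison tables deposited by the authors give bi-weight log2 averages, a signed fold and p-values with and without FDR correction, per the file headers. They served to name clusters and to copy listed folds.

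Of 72688 rows 6732 were array controls, which left 65956 clusters, and 32978 with a mean of at least log2 4.95 were tested. The 4 genotypes of a cell type shared 1 spread in limma 3.58.1 (R 4.3.3, lmFit and eBayes, no trend). Adjusted p-values are Benjamini-Hochberg over all clusters tested. Correlations used permutation tests with 100000 resamples (Python 3.11.15, scipy 1.17.1). The limma fits were tested on simulated data with known changes. The comparison tables list 1617 clusters, of which 524 carry 1 symbol. After predicted genes were left out, 302 genes were named. Named here are the 5 genes, the markers and list genes with the smallest p, and the 3 genes most like each of them. The members and the lists were chosen with earlier results of these data known. The number of arrays limits the precision. Targeted genes were not checked.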

Additional observations from a re-analysis of the deposited data

How the results depend on the processing

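The number of these genes called was the same in 348 of 350 recomputations, in which the filter, scaling, samples or model changed. The exceptions concern Ncam2 in the F test of HSC against LMPP, where leaving out 1 array at a time gave 0 to 1 calls (1 without LMPP WT replicate 1 and 1 without HSC deltaKO replicate 3). That test contains the contrast that listed Ncam2. From WT arrays only, HSC minus LMPP was 1.134 for Ncam2, 5.39 for Plxdc2 and 1.24 for Aspa. Leaving out 1 array at a time gave 2.36 to 2.67 for Ncam2, 4.54 to 4.77 for Plxdc2, 1.88 to 2.09 for Ndrg2, 2.10 to 2.28 for Aspa and 1.76 to 1.94 for Sytl5. Of the 10 pairs of genes, 6 passed by Pearson correlation over the 12 HSC arrays and 4 to 6 with 1 array left out (by Spearman 4, and 0 to 5, with 0 without HSC DKO replicate 2, HSC DKO replicate 3 or HSC deltaKO replicate 3). The DKO contrast that listed Ncam2, Ndrg2 and Aspa enters these counts, so they describe and do not test the pairs. By Pearson correlation 2 passed as deviations from genotype means, a description because those permutations crossed genotypes. None passed over the LMPP arrays or over the 9 HSC arrays that are not DKO. The last was an alternative added after seeing the data. So were the counts without the arrays that stood apart, which did not change (5 and 3 genes). The cause was not tested. In the authors' deposited table of alphaKO LMPP, the knockout averages matched within log2 0.02 for 299 of 299 clusters with HSC alphaKO replicate 2 in place of LMPP alphaKO replicate 3, and for 73 with arrays as labelled; none of the 5 genes is listed there. With that exchange Plxdc2 in LMPP alphaKO exceeded WT by 2.88, against 1.124 with arrays as labelled. The exchange puts an HSC array, with Plxdc2 at 11.59, among LMPP arrays, so this rise follows from the choice of the gene and is no test. The summed early myeloid genes were 8.23 on HSC alphaKO replicate 2, within the HSC range of 7.69 to 12.83. They were 18.02 on LMPP alphaKO replicate 3, within the LMPP range of 13.64 to 18.31. The labels were kept as given. Sytl5 has no value at a filter of log2 6, which removes it. No paired analysis was possible because the labels give running array numbers and no replicate numbers, and do not say which arrays share a pool. With 3 arrays or 2 a group, differences under about the within-group spread are not resolved, and in LMPP Ncam2 lies near the array medians and Sytl5 below them.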
